A study of Homo sapiens and Mus musculus with 26 samples.

Results

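2102EP cells are an established human embryonal carcinoma line, the pluripotent type of testicular germ cell tumor (TGCT). Perfluorooctanesulfonic acid (PFOS) is a persistent fluorinated surfactant with a fatty acid-like chain. The comparison described here is 2102EP cells exposed to 10 nM PFOS for 4 days (2 libraries) against 2102EP cells that received the vehicle, DMSO, alone (2 libraries). RNA-seq of the same cells at 5 µM PFOS (2 libraries) and of C1, a cisplatin-resistant clone derived from 2102EP, with and without 10 nM PFOS (4 libraries each) belongs to the same series and is used only where the 10 nM comparison is set against it. All groups were grown in the same serum-containing medium, and the study's methods describe RNA extraction in biological replicates, 4 of them, where each 2102EP group analysed here has 2 libraries. The p-values rest on the spread between libraries of the same group, with the 5 µM group included, and mostly on the part of that spread shared across genes. The shared part had 13.2 degrees of freedom and the residual of each gene 3. Whether the 2 libraries of a group came from separate exposures is not stated in the labels. Members were all genes with a name that reached 0.25 CPM (read counts scaled to library size) in at least 2 of the 4 libraries. That was 16694 genes of 16698 rows, since the other 4 rows had no name and every named gene passed.

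Embryonal carcinoma cells keep the transcription factors of the early embryo, among them POU5F1 (OCT4), SOX2 and NANOG, which bind each other's genes and hold the cells undifferentiated. In such cells developmental regulators are held silent by polycomb complexes, of which PRC2 methylates histone H3 at lysine K27 and PRC1 ubiquitinates histone H2A, while DNA methyltransferases silence germline genes. PFOS resembles a fatty acid and is discussed as a ligand of the peroxisome proliferator-activated receptors (PPARs), nuclear receptors that switch on genes of fatty acid oxidation.

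The label was checked against marker genes. All 10 embryonal carcinoma markers were present, at a mean of 6.97 to 10.91 log2 CPM over the 4 libraries. Of markers of other types, SOX17, AFP, APOA1, FOXA2, CGA, CGB5, MESP1, PAX6, SOX1, STMN2, DCN and LUM were not in the table, and 2 of 5 yolk sac and endoderm markers were, at no more than 1.34 log2 CPM. Of 5 seminoma markers 4 were present, up to 6.99 log2 CPM and with a summed level of 7.26 to 7.28 in control and 7.12 at 10 nM. Of 4 mesoderm markers 3 were present, at 1.70 to 4.14 log2 CPM, and of 4 neural markers 1, at 5.20 log2 CPM. Of 5 trophoblast markers 3 were present, with a summed level of 5.69 to 5.80 log2 CPM in control and 5.35 to 5.55 at 10 nM. Of 6 fibroblast markers 4 were present, with a summed level of 8.34 to 8.44 in control and 8.57 to 8.59 at 10 nM. The summed level of the 10 embryonal carcinoma markers was 13.09 to 13.13 log2 CPM in control and 12.96 to 12.97 at 10 nM. The part of other cells in the results was not tested, and in bulk RNA fewer cells of a type and less RNA per cell cannot be told apart.

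The control libraries held 33.3 M and 39.1 M reads on genes, the 10 nM libraries 48.7 M and 41.1 M and the 5 µM libraries 43.5 M and 48.1 M, so depth moved with treatment. The first principal component of the 6 libraries, with 46.5% of the variance, placed the 2 controls at 21.4 and 23.8 and the 4 PFOS libraries between -15.8 and -9.17. Among genes at or above 1 log2 CPM, the 2 controls differed by a median of 0.09 on the log2 scale, the 2 libraries at 10 nM by 0.06, and a control and a 10 nM library by 0.14 to 0.16. No replicate pair agreed within sampling noise, with chi-square values of 2.51 to 5.48 per degree of freedom.

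Exposure to 10 nM PFOS went with many small changes in both directions. By limma's moderated test over the 6 libraries, 4298 of 16694 genes (25.7%) differed from control at an adjusted p under 0.05, of which 2141 (12.8%) were higher and 2157 (12.9%) lower. Of the called genes 3933 (91.5%) changed by less than 1.5-fold, with a median size of 0.27 on the log2 scale, and only 42 rose and 48 fell by at least 2-fold. For 15481 genes (92.7%) the 95% confidence interval excluded a change of 2-fold or more in either direction. The count rested on both 10 nM libraries, as leaving out replicate 1 of that group left 2405 genes and leaving out replicate 2 left 2509. Without the trend of variance on level 1531 genes were called, and with reads scaled to the library total alone the split became 3339 higher and 1539 lower.

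**Figure D1:**
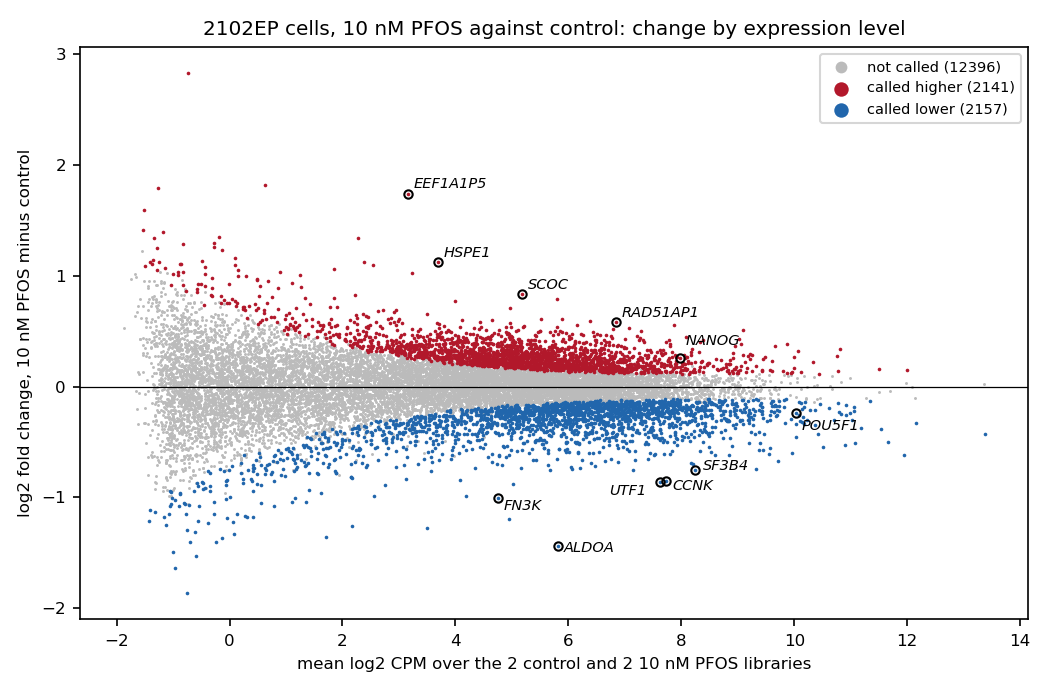
Each point is 1 of 16694 genes, with the mean log2 CPM of the 2 control and 2 10 nM PFOS libraries on the horizontal axis and the log2 fold change, 10 nM PFOS minus control, on the vertical axis; red points were called higher (2141), blue points lower (2157) and grey points were not called. The median size of a called change was 0.27, so most called genes lie close to the zero line.

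With 2 libraries against 2, an exact two-sided permutation test of a single gene cannot go below 0.333, and calls therefore rest on the spread shared across genes. The 2 groups did not overlap for 10000 genes (59.9% of those tested), so a lack of overlap alone sets no gene apart. Below, each list names its leading genes by p. The counts of each list are to be read beside the shares over all genes, 12.8% called higher and 12.9% lower. COG8, MIF, VIM, EEF1A1 and RPL22 are named as neighbours or parents, and CCNK, DPPA2, PODXL, LEFTY1, LEFTY2, HOXB13, WNT6, SOX10, YAF2, PHC2, HADH, ATM, BRCA1, BRCA2, CDKN1A, SLC2A1, DDIT4, HK1, PGAM1, LSM5, RPL15 and NDUFA2 were chosen after their values were seen.

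Of the 12 genes that rose most, at a mean of at least 1 log2 CPM, 6 were pseudogenes and 6 were protein-coding. HSPE1, the mitochondrial co-chaperonin that caps the HSPD1 chamber, lies at chr2:197500379-197503449 (GRCh38.p14). It measured 3.04 and 3.22 log2 CPM in control and 4.34 and 4.17 at 10 nM. That was 2.18-fold higher (log2 fold change 1.12, standard error (SE) 0.0862, adjusted p = 1.97e-07 by limma). HSPD1, the chaperonin itself, rose from 9.41 and 9.55 to 9.84 in both libraries, a log2 fold change of 0.36 (adjusted p = 3.28e-05 by limma). RefSeq names 28 pseudogene copies of HSPE1 and 22 of HSPD1, and the readthrough gene HSPE1-MOB4 spans HSPE1. The values of both genes are uncertain for this reason, and the part of shared sequence in them was not tested.

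SCOC, a short coiled-coil protein of the Golgi, was the only protein-coding gene at a mean above 4 log2 CPM among the 12 that rose most. It lies at chr4:140257308-140385728 and measured 4.75 and 4.77 log2 CPM in control and 5.61 and 5.58 at 10 nM, a 1.78-fold difference (SE 0.0542 on the log2 scale, adjusted p = 6.72e-08 by limma). Both 10 nM libraries lay above both controls, as the rule that picked these genes required. RefSeq places the antisense gene SCOC-AS1 over much of SCOC, and it was not analysed here. The other protein-coding genes were at low levels. PDF, a mitochondrial peptide deformylase, measured 1.46 and 1.17 in control and 2.57 and 2.19 at 10 nM, and 3676 bases of it overlap COG8, whose log2 fold change was -0.10 with no call (adjusted p = 0.179 by limma). TDRD15, a tudor domain protein, measured 0.65 and 0.83 against 1.68 and 1.81. NPPB, the precursor of B-type natriuretic peptide, measured 0.59 and 0.68 against 1.49 and 1.65. CLDN4, a tight junction claudin, measured 1.85 and 1.75 in control and 2.71 and 2.55 at 10 nM (log2 fold change 0.83).

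Among genes at a mean of at least 1 log2 CPM the largest fall was that of ALDOA, the glycolytic fructose-bisphosphate aldolase, at chr16:30064279-30070420. It measured 6.56 and 6.52 log2 CPM in control, 4.94 and 5.26 at 10 nM, and 5.44 and 5.09 at 5 µM. The 10 nM level was 2.72-fold lower (log2 fold change -1.44, SE 0.0975, adjusted p = 8.38e-08 by limma). RefSeq places LOC112694756 over 6136 bases of ALDOA, and that gene had a mean of -0.44 log2 CPM with no call. FN3K, the kinase that removes sugar adducts from proteins, fell from 5.26 and 5.25 to 4.29 and 4.19 (log2 fold change -1.01, adjusted p = 7.14e-08 by limma). SOD3, extracellular superoxide dismutase, fell from 3.19 and 2.90 to 2.13 and 1.97. CLDN3, a claudin of the same junctions as CLDN4 that lies near it on chromosome 7, moved the other way from CLDN4, with 1.80 and 1.53 in control and 0.91 and 0.42 at 10 nM.

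Of the remaining genes that fell most, several share sequence or position with a more abundant gene. BEST1, a chloride channel, fell from 2.38 and 2.41 to 1.24 and 0.83 log2 CPM, and it overlaps FTH1, the ferritin heavy chain, by 1231 bases. FTH1 itself fell from 10.26 and 10.27 to 9.79 and 9.83. MIF-AS1 fell from 2.83 and 2.76 to 1.51 and 1.56, while MIF, which it overlaps, fell by 0.22 on the log2 scale. VIM-AS1 fell from 1.93 and 1.83 to 0.89 and 0.79 with no called change of VIM (adjusted p = 0.300 by limma). LOC105373426, LOC107984590 and LOC112268184, with log2 fold changes of -1.19, -1.27 and -0.96, were not described further. CCNK, the cyclin partner of the kinase CDK12, had the smallest p of all genes and was picked for that p. Its mean fell from 8.16 log2 CPM in control to 7.31 at 10 nM (log2 fold change -0.85, SE 0.0418, adjusted p = 7.37e-09 by limma).

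Pseudogenes made up 8 of the 24 largest changes. EEF1A1P5 had 2.27 and 2.31 log2 CPM in control and 4.03 in both 10 nM libraries, with the smallest p of the genes called higher (adjusted p = 7.37e-09 by limma). Its parent EEF1A1, the translation elongation factor, had a log2 fold change of 0.03 (adjusted p = 0.622 by limma). Over 428 pseudogenes whose parent was also measured, 64 were called, 30 higher and 34 lower. By RefSeq class 17.4% of 351 pseudogenes and 12.5% of 337 transcribed pseudogenes were called, below the 25.7% of all genes. In 35 pairs both members were called, and in 16 of those they moved in opposite directions, such as RPL22P1 (1.34) and RPL22 (-0.15) or BANF1P3 (1.14) and BANF1 (-0.76), which is shown for its contrast and was chosen after its values were seen. Pseudogenes are near-copies of their parents, so values of both members of a pair are uncertain. Protein-coding genes with 5 or more named copies were called in 52.0% of 331 cases and those with no named copy in 30.1% of 10132. At 7 log2 CPM or more the shares were 57.8% of 199 and 49.8% of 1117. The part of shared sequence in the calls was not tested.

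**Figure D2:**
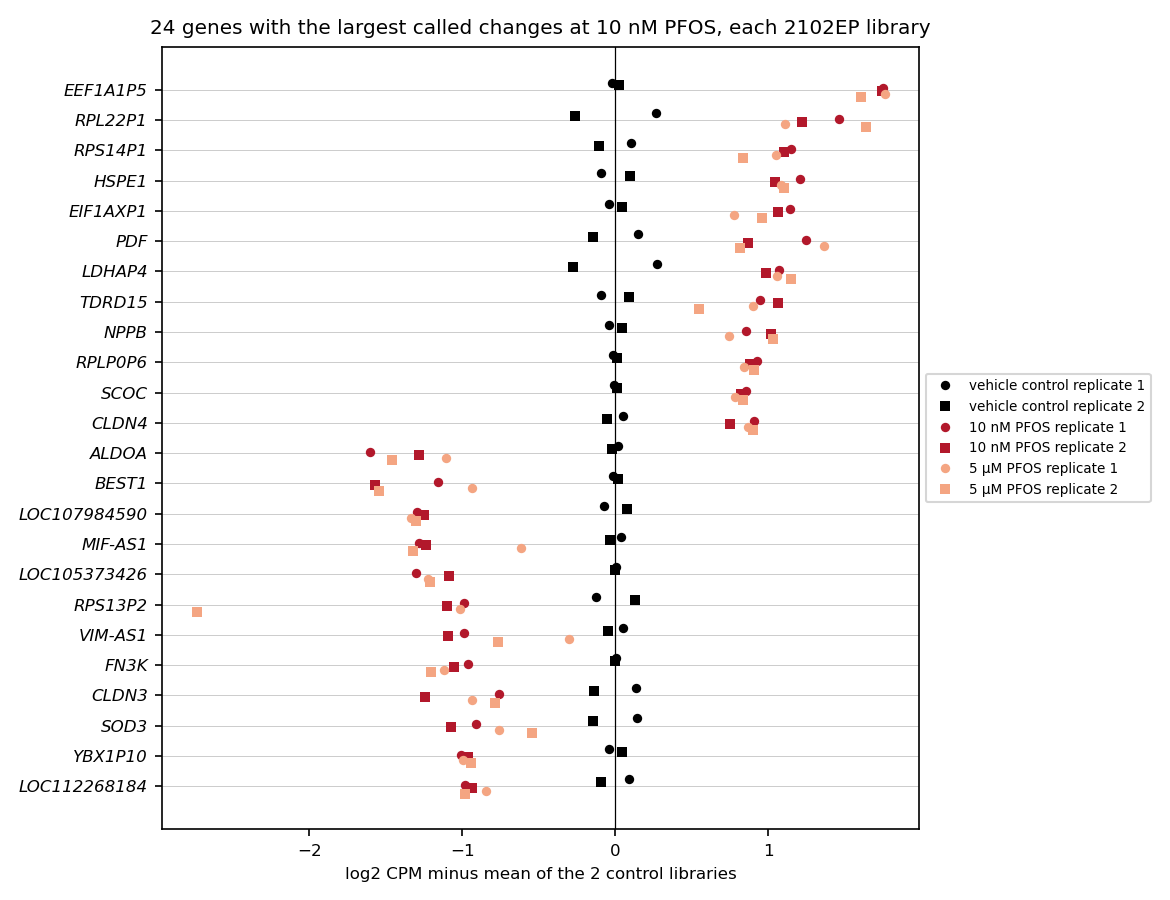
Log2 CPM of the 24 genes with the largest called changes, shown for each of the 6 2102EP libraries as the difference from the mean of the 2 vehicle controls; circles are replicate 1 and squares replicate 2. The red 10 nM points lie on the far side of both black control points for every gene by the way they were chosen. The 5 µM points are set against the same 2 controls, so their side of the zero line carries no separate information.

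Genes of the pluripotent state fell more often than they rose. All 33 listed genes were measured, and 16 fell, 5 rose and 12 were not called. Of all genes 12.9% were called lower and 12.8% higher. Among genes at a mean of 7.08 to 13.4 log2 CPM, which include POU5F1, SOX2 and NANOG, 37.1% were called lower and 15.5% higher. How far expression level accounts for the counts of this list was not tested. The median log2 fold change of the list was -0.12 (all genes 0.01), with single genes from -0.86 to 0.27. UTF1, a chromatin-associated factor of embryonic cells, fell most, from 8.17 and 7.94 log2 CPM to 7.21 and 7.18 (1.81-fold, SE 0.06 on the log2 scale, adjusted p = 9.77e-08 by limma). The libraries of the groups did not overlap.

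The core factors split. POU5F1 measured 10.17 and 10.14 in control and 9.94 and 9.89 at 10 nM (log2 fold change -0.24, adjusted p = 0.00026 by limma). Without the variance trend POU5F1 lost its call (adjusted p = 0.0519 by limma). SOX2 measured 8.30 in both controls and 8.07 and 8.05 at 10 nM (-0.24, adjusted p = 0.000331 by limma). NANOG went the other way, with 7.85 in both controls and 8.10 and 8.12 at 10 nM (0.25, adjusted p = 0.000158 by limma). Within each of these genes both 10 nM libraries lay on the same side of both controls. RefSeq names 6 pseudogene copies of POU5F1 and 10 of NANOG. LIN28A, which blocks maturation of let-7, measured 10.60 and 10.67 against 10.66 and 10.62, with no called difference.

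Other members that fell were the kinase gene PIM2 (-0.30), the DNA-binding factor DPPA2 (-0.31), and PODXL (-0.25), the carrier of the TRA-1 surface antigens. LEFTY1 rose from 5.70 and 5.46 to 5.90 and 5.80 and LEFTY2 from 5.32 and 5.11 to 5.44 and 5.38, both secreted inhibitors of NODAL signaling. After each library was corrected for transcript GC content and length the counts were again 16 lower and 5 higher.

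The 250 bases before the RefSeq start of 3 of these genes are printed because POU5F1 and SOX2 proteins are known to bind as a pair next to NANOG's start, and the members moved in different directions. Capitals mark each match to ATGCAAA, letters of the POU-factor octamer, or to CATTGT, letters read by SOX factors, on either strand; the sequences are from RefSeq, build GRCh38.p14, plus strand.
NANOG, chr12:7789152-7789401: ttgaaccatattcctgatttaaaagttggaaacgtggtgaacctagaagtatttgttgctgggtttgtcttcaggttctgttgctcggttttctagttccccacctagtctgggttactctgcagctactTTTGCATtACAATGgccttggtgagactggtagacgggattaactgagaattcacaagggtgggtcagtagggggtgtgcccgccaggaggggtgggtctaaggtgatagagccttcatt
SOX2, chr3:181711675-181711924: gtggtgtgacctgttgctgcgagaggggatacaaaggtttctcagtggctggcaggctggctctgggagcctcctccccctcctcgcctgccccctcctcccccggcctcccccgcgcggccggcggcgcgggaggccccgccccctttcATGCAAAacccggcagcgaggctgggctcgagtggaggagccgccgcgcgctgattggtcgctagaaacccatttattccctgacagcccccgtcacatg
UTF1, chr10:133229967-133230216: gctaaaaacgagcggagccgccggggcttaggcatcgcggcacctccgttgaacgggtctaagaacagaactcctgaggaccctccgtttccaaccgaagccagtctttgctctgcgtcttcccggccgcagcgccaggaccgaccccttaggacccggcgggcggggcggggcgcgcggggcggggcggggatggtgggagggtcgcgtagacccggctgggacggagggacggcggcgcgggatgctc
NANOG, which rose, holds both motifs side by side, beginning 120 and 112 bases before the start. SOX2, which fell, holds the octamer letters alone, beginning 100 bases before the start, and UTF1, which fell most, holds neither. Of 35116 RefSeq promoters of this length, 3.94% held ATGCAAA, 9.29% held CATTGT and 2 held both joined with 1 base between them, a form that contains the other motifs. Of the 18 listed genes with a promoter in the table, NANOG, PIM2 and SOX2 held ATGCAAA, and GDF3, LIN28B and NANOG held CATTGT. These matches are letters in a window of 250 bases and were not measured as binding, and sites outside the window were not searched. Whether the motifs relate to the direction of change was not tested. The GC content of the printed windows was 47.6% for NANOG, 68.8% for SOX2 and 70.8% for UTF1, where the median of all promoters was 58%.

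**Figure D3:**
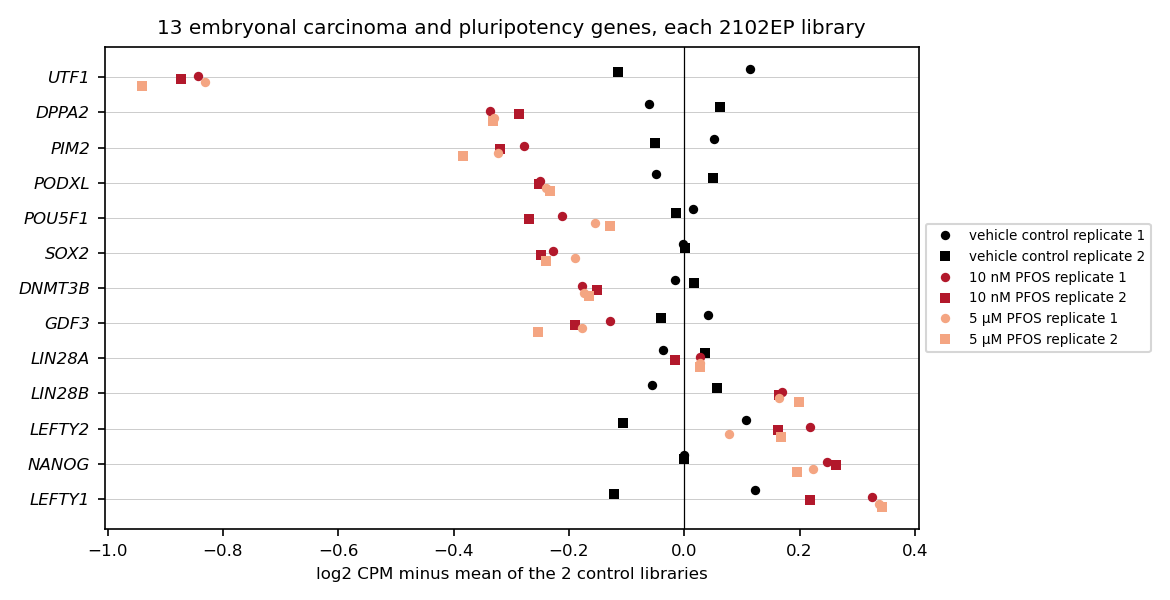
Log2 CPM of 13 of the 33 embryonal carcinoma and pluripotency genes, those named in the text, in each of the 6 2102EP libraries, as the difference from the mean of the 2 vehicle controls; circles are replicate 1 and squares replicate 2, and genes are ordered by their change at 10 nM. UTF1 stands apart at -0.86, and NANOG (0.25) and LEFTY1 (0.27) are at the positive end.

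Polycomb target genes, developmental regulators that carry H3K27 methylation in embryonic cells, fell more often than they rose. Of 177 listed genes 105 were measured, and 20 fell, 2 rose and 83 were not called, so 22 of 105 were called in either direction, where 25.7% of all genes were (12.9% lower and 12.8% higher). Their median log2 fold change was -0.14, beside 0.01 over all genes. The homeobox gene EN1 measured 2.64 and 2.49 log2 CPM in control and 1.72 and 1.78 at 10 nM (1.76-fold lower, adjusted p = 0.000221 by limma). BARX1 fell from 6.45 and 6.36 to 6.10 and 6.09 and IRX1 from 4.67 and 4.60 to 4.28 and 4.25, both homeobox genes. The 2 genes that rose were HOXB13, from 1.57 and 1.39 to 2.10 and 2.01, and the ligand gene WNT6, from -0.84 and 0.06 to 0.59 and 0.75. The median GC content of their transcripts was 57.0%, against 48.3% for all genes, and after the correction for GC and length 18 fell and 3 rose. Lineage lists that hold some of these genes were small. Of 9 trophoblast genes 3 fell (HAND1, GATA3 and ERVW-1), of 12 neural and surface ectoderm genes 4 fell (SIX3, SOX10, ZIC2 and NES) and of 11 mesoderm genes 2 fell (NKX2-5 and KDR). None of these 3 lists had a gene called higher, except that 2 mesoderm genes were after the correction for GC and length. With reads scaled to the library total 1 trophoblast, 4 neural and surface ectoderm and 1 mesoderm genes were called lower, as GATA3, ERVW-1 and KDR lost their calls (adjusted p = 0.0624, 0.0775 and 0.0925 by limma).

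Polycomb complex genes were called in both directions. Of 13 measured PRC2 genes 2 rose and 3 fell, and with reads scaled to the library total 4 rose and 2 fell. EZH2, the methyltransferase, measured 5.85 and 5.86 log2 CPM in control and 5.64 and 5.75 at 10 nM (-0.16, adjusted p = 0.0407 by limma), a call that was lost under library-total scaling (adjusted p = 0.160 by limma). EED rose by 0.19 (adjusted p = 0.0436 by limma), and after correction for GC and length its change was 0.000735 with no call. MTF2, the other PRC2 gene called higher (0.14), also lost its call after that correction (0.03, adjusted p = 0.565 by limma). SUZ12 was not called (-0.03) but was called lower after that correction (-0.13). JARID2 and AEBP2, accessory subunits, fell by 0.18 and 0.19. Without the variance trend EZH2, EED, MTF2, JARID2 and AEBP2 lost their calls (adjusted p = 0.0737 to 0.171 by limma). With only the 2 groups fitted EZH2, EED and MTF2 lost theirs (adjusted p = 0.0630 to 0.0777 by limma). EED also lost its call under median-of-ratios scaling (adjusted p = 0.0502 by limma).

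In PRC1 9 of 26 genes fell and 3 rose. PCGF2, a subunit of the canonical complex, fell from 7.78 and 7.68 log2 CPM to 7.05 and 7.11 (1.57-fold, adjusted p = 1.03e-07 by limma). AUTS2, part of a variant PRC1, fell from 7.35 and 7.39 to 6.73 and 6.84. YAF2 rose from 1.82 and 1.85 to 2.29 and 2.22 and PHC2 from 4.71 and 4.65 to 4.91 and 4.89. Of 20 listed genes of histone methylation 6 fell, RCOR2 among them. None was called higher, though 4 were with reads scaled to the library total. The list holds enzymes that add or remove methyl groups at H3K27 or H3K4 and, beside them, RCOR1, RCOR2, RCOR3, NSD1, NSD2 and NSD3. KDM6B, an H3K27 demethylase, fell from 6.53 and 6.38 to 5.83 and 5.91. SETD1A, an H3K4 methyltransferase, fell from 7.66 and 7.60 to 7.14 and 7.12.

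Among 22 genes of DNA methylation 4 rose and 5 fell, and with reads scaled to the library total 7 rose and 3 fell. The methyltransferases DNMT1 (-0.12), DNMT3A (-0.18) and DNMT3B (-0.16) were each called lower, and DNMT1 lost its call after the GC and length correction (adjusted p = 0.153 by limma) and under library-total scaling (adjusted p = 0.161 by limma). DNMT3L, the catalytically inactive cofactor, rose by 0.19, with 4.48 in both controls and 4.68 in both treated libraries. TET1, which oxidizes methylcytosine, measured 6.89 and 6.94 in control and 7.14 and 7.15 at 10 nM (0.23, adjusted p = 0.000787 by limma). Without the variance trend DNMT1, DNMT3A, DNMT3B, DNMT3L and TET1 lost their calls (adjusted p = 0.0531 to 0.144 by limma). With only the 2 groups fitted DNMT1 (adjusted p = 0.0661 by limma) and DNMT3L (adjusted p = 0.0590 by limma) lost theirs. Of 50 germline genes that DNA methylation silences, 21 were measured and 0 were called by limma-trend, with 7 at an unadjusted p under 0.05. Over all genes 25.7% were called, but most of the 21 lay below 1.99 log2 CPM, where calls were rare. Among all genes at a mean of -1.88 to -0.30 log2 CPM, 2.10% were called higher and 2.40% lower. At 0.75 to 1.99 log2 CPM the shares were 4.01% and 5.51%. The part of expression level in the count of 0 was not tested. GTSF1 (-0.13) was called lower under 5 alternatives that kept every library of the comparison, with adjusted p values from 0.00246 after the correction for GC and length to 0.0481 with a minimum of 1 CPM (limma). DPEP3 (-0.94) passed as lower with limma-voom on recovered reads (adjusted p = 0.0430), and with library-total scaling 3 were called higher, SYCP2 among them (adjusted p = 0.0489 by limma). The median of the list was 0.18, and 0.04 after the correction for GC and length.

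Few PPAR receptors and targets were called. Of 22 measured genes (25.7% of all genes were called) 1 passed, CPT1A, the gate of fatty acids into mitochondria, which fell from 6.31 in both controls to 6.09 and 6.11 (-0.21, adjusted p = 0.00324 by limma). TXNIP, a regulator of glucose uptake, had a log2 fold change of 0.29 with no call (adjusted p = 0.0542 by limma) and was called higher under 4 alternatives that kept every library of the comparison, with adjusted p values of 0.0255 to 0.0473 (limma). PPARA measured 0.91 and 1.11 log2 CPM in control and 0.98 and 1.20 at 10 nM, PPARD 4.63 and 4.58 against 4.47 and 4.50, and PPARG was not in the table. For 18 of the 22 genes the interval excluded a 2-fold change. Of 36 genes of fatty acid oxidation 4 rose and 3 fell, so 19.4% were called. ECI1, an enoyl-CoA isomerase, rose from 5.33 and 5.34 to 5.69 and 5.65, and HADH, which follows it in the cycle, from 4.64 and 4.91 to 5.12 and 5.01.

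Lipid synthesis genes were called in both directions. Over all genes 25.7% were called. The shares were 28.1% in cholesterol synthesis and uptake, 24.1% in fatty acid synthesis and 28.6% in steroid hormone synthesis. In cholesterol synthesis and uptake 3 of 32 genes rose and 6 fell, while 7 rose and 1 fell with reads scaled to the library total and 7 rose and 6 fell after the correction for GC and length. STARD4, a sterol carrier, rose by 0.48 on the log2 scale, and MSMO1, a sterol demethylation enzyme, by 0.35. EBP, the sterol isomerase, fell from 7.46 and 7.47 to 7.05 in both treated libraries. In fatty acid synthesis 5 of 29 rose and 2 fell, with ELOVL5 at -0.32 and ELOVL1 at 0.30, both chain elongases. In steroid hormone synthesis 3 of 21 rose and 3 fell. HSD11B2, which inactivates cortisol, fell from 4.07 and 4.03 to 3.35 and 3.41 (1.59-fold, adjusted p = 2.02e-05 by limma).

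Of the genes for entry and metabolism of xenobiotics 3 of 22 rose and none was called lower, though 1 was after the correction for GC and length. They were the efflux pump gene ABCC4 (0.37), GSTP1 (0.14) and the organic anion transporter gene SLCO1A2 (0.21), which lost its call with limma-voom (adjusted p = 0.0508), with only the 2 groups fitted (adjusted p = 0.0591 by limma) and after the correction for GC and length (adjusted p = 0.202 by limma). Peroxins, the factors that build peroxisomes, gave 3 of 15 higher and 1 lower, PEX14, from 5.90 and 5.80 to 5.56 and 5.45. The shares called were 13.6% of the xenobiotic genes and 26.7% of the peroxins, beside 25.7% of all genes.

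Chromosome segregation and DNA repair genes rose more often than they fell, where 12.8% of all genes were called higher and 12.9% lower. Of 45 spindle checkpoint and kinetochore genes 20 rose, 5 fell and 20 were not called, with a median log2 fold change of 0.12. SGO2, a protector of centromere cohesion, rose from 5.16 and 5.25 log2 CPM to 5.66 in both treated libraries. CENPK, a kinetochore subunit, rose from 4.33 and 4.39 to 4.83 and 4.78. PLK1, a kinase of mitotic entry, moved the other way, from 8.57 and 8.50 to 8.16 and 8.12 (1.32-fold lower, adjusted p = 2.9e-06 by limma). The median GC content of these transcripts was 42.2%, and after the correction for GC and length 13 rose and 5 fell. In the tenth of all genes with 40.5% to 42.7% GC, 21.3% were called higher and 8.91% lower.

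Of 38 homologous recombination genes 13 rose and 3 fell. RAD51AP1, a factor that promotes strand invasion, measured 6.54 and 6.56 in control and 7.15 and 7.11 at 10 nM (1.5-fold, SE 0.0434 on the log2 scale, adjusted p = 1.56e-07 by limma). RMI1, which acts with the BLM helicase, rose from 4.65 and 4.64 to 5.12 and 5.16. ATM (0.38) and BRCA2 (0.33) rose, while BRCA1 (-0.03) was not called. Of 47 DNA replication genes 10 rose and 8 fell, and 17 rose and 4 fell with reads scaled to the library total. RPA3 rose from 4.24 and 4.35 to 4.85 and 4.76, and RFC4 fell from 5.94 in both controls to 5.52 and 5.51.

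Of 34 p53 targets 10 rose and 2 fell. MDM2, the ubiquitin ligase that limits p53, rose from 9.29 and 9.42 to 9.60 and 9.64, and ZMAT3 from 5.32 and 5.49 to 5.72 and 5.77. CDKN1A, the p21 cell cycle inhibitor, was not called, with 5.63 and 5.57 against 5.70 and 5.58. Apoptosis regulators gave 4 of 39 higher and 5 lower, so 23.1% were called, beside 25.7% of all genes. BCL2L1, an inhibitor of cell death, fell from 7.21 and 7.24 to 7.02 and 6.96. With reads scaled to the library total 10 of the 39 were called higher and 3 lower.

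Hypoxia-inducible factor targets gave 10 of 51 higher and 3 lower, with a median of 0.13. Of this list 25.5% was called, beside 25.7% of all genes. PLOD2, a collagen lysyl hydroxylase, rose from 6.28 and 6.25 log2 CPM to 6.80 and 6.67 (adjusted p = 6.51e-06 by limma). The glucose transporter genes SLC2A3 (0.28) and SLC2A1 (0.29) and DDIT4 (0.33), an inhibitor of mTOR, rose as well. The 3 that fell, ALDOA, HK1 and PGAM1, are glycolytic enzymes, and in the glycolysis list 5 of 26 genes rose and 5 fell. After the correction for GC and length 20 hypoxia genes and 12 glycolysis genes were called higher, with 5 lower in each list. PKM, pyruvate kinase, fell from 11.18 and 11.15 to 10.90 and 10.84, and LDHB, a lactate dehydrogenase, rose from 10.64 and 10.65 to 11.01 and 10.96.

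Spliceosome genes fell more often than they rose. Of 70 measured genes 29 fell and 7 rose, and with reads scaled to the library total 19 fell and 17 rose. Over all genes 12.9% were called lower and 12.8% higher. In the tenth of all genes with the highest level, which holds SF3B4, SNRPF and SF3A1, 37.1% were called lower and 15.5% higher. The part of expression level in these counts was not tested. SF3B4, an SF3B subunit of the U2 particle, measured 8.62 and 8.61 log2 CPM in control and 7.89 and 7.84 at 10 nM (1.69-fold lower, SE 0.0393 on the log2 scale, adjusted p = 8.32e-09 by limma). The Sm core gene SNRPF fell from 8.48 and 8.55 to 7.81 and 7.83, and SF3A1 from 8.97 and 8.96 to 8.51 and 8.50. LSM5, of the U6 ring, rose from 4.56 and 4.65 to 5.31 in both treated libraries.

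Large complexes showed many calls in both directions within the same complex. Of 77 cytosolic ribosomal protein genes 27 rose and 25 fell, with a median log2 fold change of 0.03. RPL28 fell from 9.74 and 9.64 to 8.94 and 8.95 (1.67-fold, adjusted p = 5.11e-08 by limma) and RPS25 from 9.12 and 9.20 to 8.55 and 8.53. RPL15 rose from 8.86 and 8.82 to 9.39 and 9.30. Of 76 respiratory chain and ATP synthase genes 27 rose and 21 fell. ATP5MF fell from 6.45 and 6.44 to 5.97 and 5.89 and COX5B from 6.91 and 6.88 to 6.42 and 6.44, while NDUFA2 rose from 4.66 and 4.69 to 5.14 and 5.16. In both lists the share called (67.5% and 63.2%) stood beside 25.7% over all genes, and in the tenth of all genes with the highest level 15.5% were called higher and 37.1% lower. Members of these complexes have many pseudogene copies, 10 for RPS25 and 8 for COX5B.

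**Figure D4:**
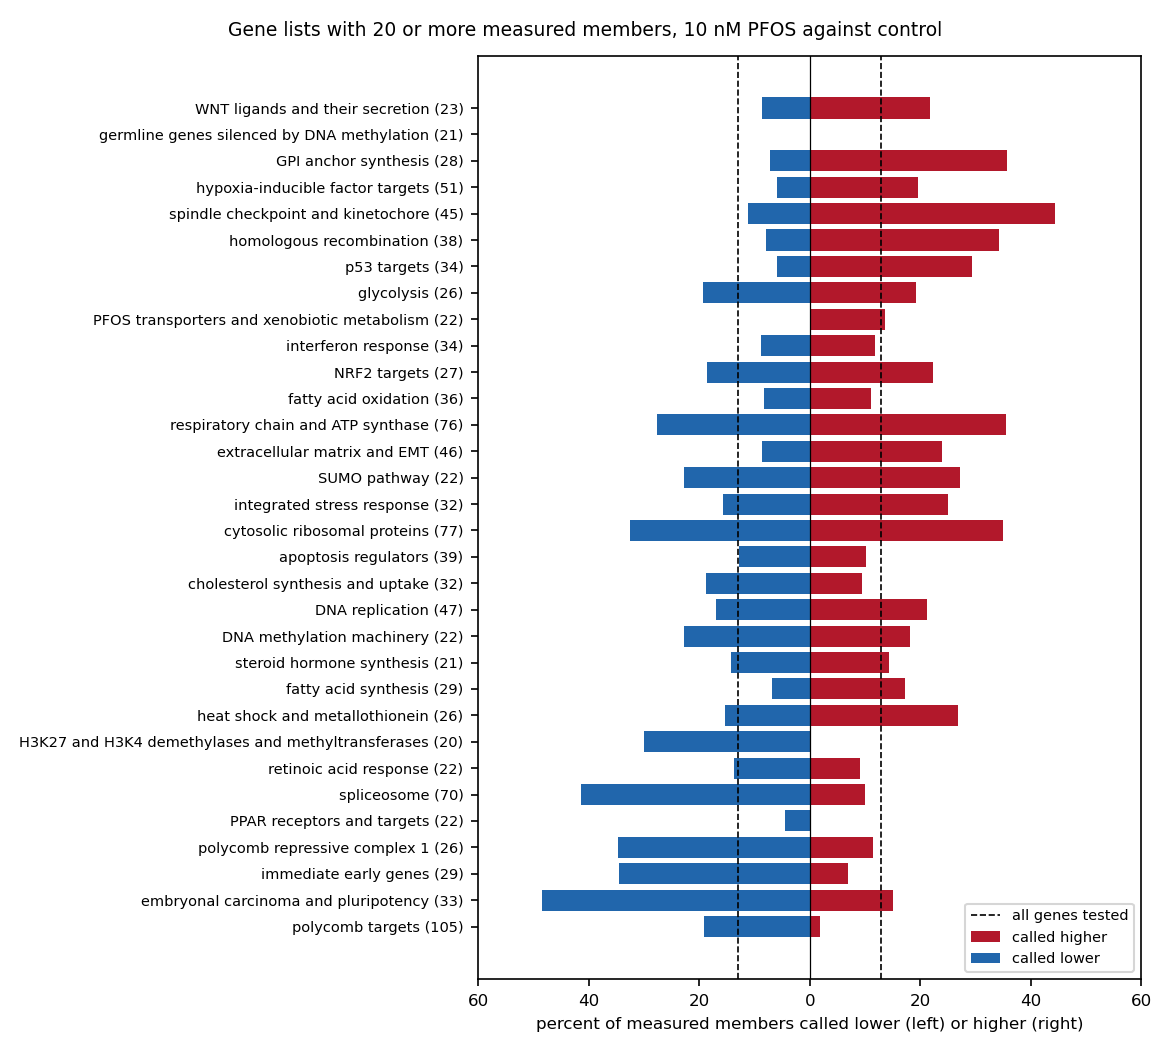
Share of measured members called higher (red, right) or lower (blue, left) at 10 nM PFOS for each list with 20 or more measured members, whose number stands in parentheses; lists are ordered by median log2 fold change and dashed lines give the shares over all genes tested (12.8% higher and 12.9% lower). Pluripotency, spliceosome and PRC1 genes extend furthest to the lower side. Spindle checkpoint, glycosylphosphatidylinositol (GPI) anchor and respiratory chain genes extend furthest to the higher side. PPAR genes stay inside both lines, as do germline, fatty acid oxidation, interferon response and apoptosis genes.

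Stress and signaling genes were mixed. Of 29 immediate early genes, which answer growth factor signals within minutes, 10 fell and 2 rose. EGR1 fell from 3.98 and 3.87 to 3.20 and 3.28 and FOSL1 from 6.41 and 6.40 to 5.93 and 5.85, while JUND rose from 6.43 and 6.33 to 6.82 and 6.74. In the integrated stress response 8 of 32 rose and 5 fell. ATF5, a factor of that response, fell from 5.22 and 5.15 to 4.51 and 4.44, PPP1R15A, which ends it, from 5.65 and 5.69 to 5.19 and 5.18, and MTHFD2 rose from 6.57 and 6.64 to 6.98 and 6.97. Among 27 NRF2 targets 6 rose and 5 fell, the latter with FTH1 (-0.45) and the pentose phosphate enzymes TKT (-0.32) and PGD (-0.30). MT2A, a metal-binding metallothionein, fell from 8.18 and 8.20 to 7.70 and 7.63.

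GPI anchor synthesis, which ties proteins to the outer face of the plasma membrane, gave 10 of 28 higher and 2 lower. Its median was 0.16. PIGK, of the transamidase, rose from 5.20 and 5.24 to 5.51 and 5.53, and PIGT of the same complex fell (-0.35). WLS, the carrier of WNT ligands to the cell surface, rose from 5.85 and 5.98 to 6.37 and 6.24. In the SUMO pathway SUMO3 (-0.59) and the protease gene SENP2 (-0.39) were among 5 of 22 that fell, and 6 rose. Extracellular matrix and EMT genes gave 11 of 46 higher, FN1 (0.25) among them, and 4 lower, with ITGB1 (-0.34) and MMP14 (-0.25). Interferon response genes gave 4 of 34 higher and 3 lower, the latter IFITM2 (-0.34), IFITM3 (-0.25) and HLA-C (-0.21). The shares called were 20.6% for this list, 22.7% for the retinoic acid response and 23.1% for yolk sac and endoderm. Over all genes 25.7% were called. The remaining lists gave 2 higher and 3 lower of 22 in the retinoic acid response, 2 higher and 1 lower of 13 in yolk sac and endoderm, 2 lower of 7 in seminoma (0 with reads scaled to the library total), 2 higher and 2 lower of 12 in fibroblast and stroma, 7 higher and 4 lower of 26 in heat shock and metallothionein, and 1 lower of 6 histone genes.

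The change varied with the base composition of the transcript. Over 12680 genes at or above 1 log2 CPM with a known transcript, Spearman's rho between log2 fold change and GC content was -0.30 across genes, which are not independent replicates. In the tenth of genes with the lowest GC (29.2% to 38.2%) the median was 0.13, with 464 of 1268 genes called higher and 76 lower. In the tenth with the highest GC (61.4% to 76.9%) the median was -0.06, with 107 higher and 307 lower. The 2 control libraries differed from each other along the same property, with a rho of -0.58 for replicate 2 minus replicate 1, and the 2 libraries at 10 nM did so less (-0.07). A fit on values corrected per library for GC and length, over 15499 genes, called 4908 genes, of which 3579 were among the 4298. The part of GC content in the changes was not tested beyond these values.

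**Figure D5:**
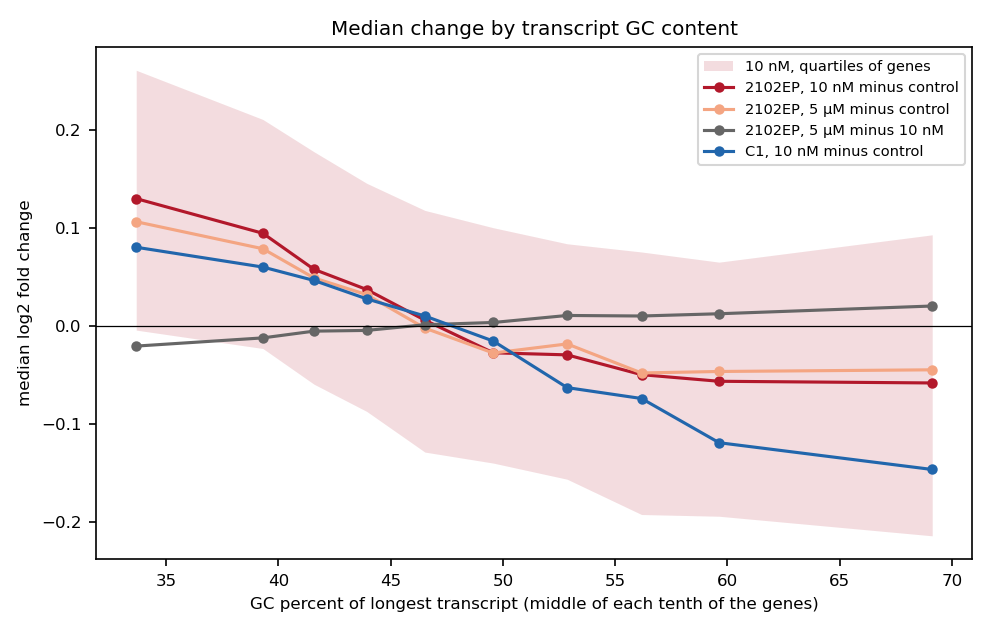
Median log2 fold change of genes in 10 equal groups by GC content of the longest transcript, for 10 nM minus control in 2102EP (red, with the quartiles of the genes shaded), 5 µM minus control in 2102EP (orange), 5 µM minus 10 nM in 2102EP (grey) and 10 nM minus control in C1 (blue). The 10 nM line falls from 0.13 to -0.06, the C1 line from 0.08 to -0.15, and the line between doses stays between -0.02 and 0.02.

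The higher dose, 5 µM, gave no called difference from 10 nM. Between 5 µM and 10 nM PFOS, groups that have no library in common, 0 of 16694 genes (0%) were called by limma-trend at an adjusted p under 0.05, the smallest being 0.556, and 552 had an unadjusted p under 0.05. Limma-voom on recovered reads also called 0. The median size of the difference between doses was 0.05 on the log2 scale, and for 15948 genes (95.5%) the 95% interval of the difference excluded 2-fold. Without replicate 1 of the 5 µM group, 59 genes were called, of which 58 were lower at 5 µM. Both doses were set against the same 2 controls, so their values against control are given side by side only. At 5 µM 4484 genes were called, 2207 higher and 2277 lower. HSPE1 differed from control by 1.12 at 10 nM and 1.09 at 5 µM, ALDOA by -1.44 and -1.28, UTF1 by -0.86 and -0.89, NANOG by 0.25 and 0.21, and PCGF2 by -0.65 and -0.70. POU5F1 differed by -0.24 at 10 nM and -0.14 at 5 µM, with an interval of the difference between doses from 0.02 to 0.18 (adjusted p = 1.00 by limma).

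In C1 cells the same dose gave no called gene. Of 17335 genes 0 (0%) passed by limma-trend, with a smallest adjusted p of 0.273 and 2782 at an unadjusted p under 0.05, and limma-voom on recovered reads also called 0. Without replicate 1 of the C1 PFOS group, which lay at 43.6 on the first principal component where the other 7 libraries lay between -13.2 and 8.48, 7 genes were called. The 2 lines were normalized apart and the difference between them was not tested. Of the 4298 genes called in 2102EP, 4193 were measured in C1, and 1767 of these (42.1%) had the same sign there, beside 5527 (47.8%) of the 11566 genes not called in 2102EP. ALDOA had a log2 fold change of 0.74 in C1 (95% interval 0.28 to 1.20), HSPE1 -0.30, UTF1 0.05, NANOG -0.05, POU5F1 0.02 and SCOC -0.01, and none was called. Over 12832 genes Spearman's rho between the changes of the 2 lines was -0.14 and without C1 PFOS replicate 1 it was -0.02. Change in C1 also followed GC content, with a rho of -0.49.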

How the data were processed

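Libraries were made from polyadenylated RNA with a stranded kit and sequenced on an Illumina HiSeq 4000. Per the labels and the study's methods, the authors aligned reads with STAR, counted them with featureCounts (build GRCh38.p14 per the labels) and normalized them with limma. They deposited log2 CPM values, 1 table for each cell line, scaled separately. The deposited values gave back whole read counts after removal of a prior count that averaged 3 reads and ran from 2.32 to 3.49 reads between libraries, with a largest gap from a whole number of 3.68e-05 reads among counts under 1000, and rows without a name held at most 0.000443% of reads. Versions are not given in the sources used here.

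The deposited log2 CPM values were fitted as they stand with limma 3.58.1 in R 4.3.3 (limma-trend, moderated test, Benjamini-Hochberg adjustment over all genes, threshold 0.05) over the 6 2102EP libraries with group as the only term, and C1 was fitted apart over 8 libraries. A fold change on this scale understates that of low genes because of the prior count. Intervals are at the 95% level. Scripts were tested on simulated data. The samples were grouped by their labels, with 2 libraries in each 2102EP group and 4 in each C1 group.

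The members and gene lists were chosen with earlier results of these data known. Genes were named if they were a fixed gene, one of the 12 largest called changes in each direction at a mean of 1 log2 CPM or more and no overlap between groups, or 1 of the 3 members of a list with the smallest p; others were chosen after their values were seen. Alternatives were limma-voom on recovered reads, other scalings, filters and pseudocounts, a replicate block, only the groups compared, no variance trend and leaving out each library. Scaling to the library total, the correction of each library for transcript GC content and length (spline with 5 degrees of freedom), the minimum without the prior count and protein-coding genes alone were added after seeing the data. GC content and length were known for 15499 genes (92.8%), from the longest GENCODE transcript of each symbol. Depth limits precision by counting error only in part, since replicate libraries differed by more than sampling noise. Some measured genes are not reported here.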

Additional observations from a re-analysis of the deposited data

Results flagged for a closer look

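A lone library was looked for in 76 groups of 4 C1 libraries, and 5 were found, where chance gives about 1 in 20. In C1 10 nM PFOS replicate 1, EIF1AXP1 stood at 2.72 log2 CPM, EED at 5.17 and DNMT3L at 4.69, each far from the other 3 libraries of its group. SOD3 stood at -0.26 log2 CPM in C1 10 nM PFOS replicate 2 and LIN28A at 11.001 in C1 control replicate 2.

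Of 37 named genes compared between the lines, EED and DNMT3L moved one way in every 2102EP library at 10 nM and the other way in every C1 library. EED had a log2 fold change of 0.19 in 2102EP and -0.14 in C1, and DNMT3L 0.19 and -0.24. The difference between the lines was not tested. Of all 15759 genes measured in both lines, 528 were separated in opposite directions in this way and 466 in the same direction.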

How the results depend on the processing

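The count of 4298 genes called at 10 nM lay between 3801 and 4908 under the other fits, except that 1531 genes were called without a variance trend and 90 where a change of 2-fold was required as well. Leaving out 1 library gave 2405 to 4938 genes, with 2405 without 10 nM PFOS replicate 1 and 2509 without 10 nM PFOS replicate 2, where the lone library left is assumed to vary like the other groups. Library-total scaling called 4878 genes, 3339 higher and 1539 lower, and moved the median of all genes from 0.01 to 0.06. The count of 0 genes between 5 µM and 10 nM became 1 when only those groups were fitted, 1 after the correction for GC and length, and 0 to 59 when 1 library was left out. The count of 0 in C1 became 0 to 7 when 1 library was left out. In none of these was the cause tested.

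Deviations of same-numbered libraries from their group means correlated at -0.05 to 0.03 in 2102EP and -0.18 to 0.07 in C1. With 2 libraries a group the 2 deviations of a gene mirror each other. The 2102EP values therefore cannot show whether same-numbered libraries shared a culture or batch, which the labels do not say. With a replicate block 4559 genes were called at 10 nM, 0 between the doses and 0 in C1. Of 156 named genes none lost its call with the block, and GTSF1 and TXNIP gained one.

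Of the 143 named genes that were called, 48 lost the call without a variance trend, 4 after the correction for GC and length (EED, DNMT1, MTF2 and SLCO1A2), 8 with library-total scaling and 6 to 20 when 1 library was left out. No named gene that was called changed sign. The median of 7 lists changed sign after the correction for GC and length and that of 5 with library-total scaling. With 2 libraries a group, changes smaller than the median interval half-width of 0.17 on the log2 scale could not be resolved for most genes.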

Other observations

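Gene classes were also counted. Of 1299 long noncoding RNA genes 51 rose and 83 fell, and of 66 small nucleolar RNA genes 8 rose and 4 fell, with a median log2 fold change of 0.25. Of 14077 protein-coding genes 2002 rose and 1987 fell (28.3% called).

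Of the 23 measured WNT ligand and secretion genes 5 rose and 2 fell, with a median of 0.20. Of this list 30.4% was called, beside 25.7% of all genes. No transcript of the mitochondrial genome was in the table, so none of the 28 listed was analysed here.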
